A study of Mus musculus with 2 samples.

Results

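Cyclin-dependent kinase (CDK) inhibitors and D-type cyclins set whether a cell passes from G1 into DNA replication, and 10 of their genes are described here across the cell classes of mouse epididymal fat. They were taken by symbol from a list, as 10 of 27998 genes in the gene table, and all 10 had UMIs (unique molecular identifiers, each counting 1 captured transcript) in both libraries. The list holds the CIP/KIP inhibitors Cdkn1a, Cdkn1b and Cdkn1c, the INK4 inhibitors Cdkn2a, Cdkn2b and Cdkn2d, the D-type cyclins Ccnd1, Ccnd2 and Ccnd3, and Mdm2. D-type cyclins bind CDK4 or CDK6 and start the phosphorylation of RB, which releases E2F factors and lets the genes of replication be transcribed. INK4 proteins bind those kinases directly, CIP/KIP proteins bind cyclin and kinase complexes more broadly, and Mdm2 is the ligase that marks p53 for breakdown while being a target gene of p53 itself. In fat, several of these inhibitors are widely used as marks of senescent or resting cells, and the study asked about senescent macrophages in obesity.

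The study profiled stromal vascular cells of epididymal adipose tissue from male C57BL/6J mice with droplet-based 3′ sequencing. There was 1 library from mice fed a low fat diet (LFD) and 1 from mice fed a high fat diet (HFD), each diet given for 24 weeks from 6 weeks of age by the labels, although the methods give a younger age at isolation than this would make. How many mice gave each library is unknown, and a note on treatment in the sample labels names the low fat diet for both libraries, whereas the labelled diet of each sample differs. With 1 library per diet there were no replicates, so diet and library cannot be told apart and no test was made.

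The LFD library held 7356278 UMIs in 1113 barcodes and the HFD library 8412325 UMIs in 1144 barcodes, with medians of 6197 and 6486 UMIs. The libraries shared 0 barcodes. Of the barcodes with at least 200 genes, 781 of 1057 (LFD) and 753 of 1117 (HFD) met exactly 1 of 5 class rules. Fibroblasts held at least 10 Dcn UMIs and were set apart by at least 3 UMIs of Pi16, Dpp4 and Sema3c together (173 and 84 cells) or fewer (204 and 207 cells). Endothelial cells held at least 3 UMIs of Cdh5 and Cldn5 (98 and 115 cells), macrophages at least 10 of C1qa, C1qb and C1qc, with a Cd9 UMI (4 and 116 cells) or without (225 and 204 cells), and T cells at least 2 of Cd3d, Cd3e and Cd3g (72 and 21 cells). The mural rule, at least 5 UMIs of Rgs5, Kcnj8, Abcc9 and Notch3, was met by 64 and 116 barcodes, but 90.6% and 93.1% of those also met the endothelial rule, which left 5 and 6 mural cells. Barcodes of both vessel rules and no other (51 and 92) are given as a group of their own. The levels below are UMIs of a gene per 1000000 UMIs of the class (CPM), with exact Poisson 95% intervals. Ratios are HFD over LFD unless stated, with exact conditional binomial 95% intervals, and shares of cells have exact binomial 95% intervals. All these intervals cover counting error only. The filter of the study, 200 to 2500 genes and under 5% mitochondrial UMIs, is used below as an alternative only. It kept 294 LFD and 352 HFD barcodes, and its upper limit on genes leaves out deeper ones.

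Markers outside the class rules were checked against the class names. Fibroblast, endothelial and macrophage markers led in the classes of those names in both libraries. In the 5 LFD mural cells 3 of 6 fibroblast markers summed to 4075 CPM against 3042 CPM of 5 of 7 mural markers. By these sums the mural name was not borne out there. Gsn made up 2640 CPM of the fibroblast sum, and Pdgfra, Lum and Serpinf1 were at 0, so the sums do not settle what these cells are. In the 6 HFD cells fibroblast markers stood at 2357 CPM, led by Col3a1 at 1178 CPM with the same genes at 0, against 3321 CPM of mural markers. In the Pi16/Dpp4/Sema3c fibroblasts 3 of 3 mesothelial markers were seen as well, at a summed level of 1007 CPM in LFD and 871 CPM in HFD, with Upk3b the most abundant. Endothelial cells carried 2 of 2 erythroid markers at 4749 and 6289 CPM, beside 7112 and 7543 CPM of endothelial markers. The T cell rule fitted its name less well in LFD, where 5 of 6 macrophage markers summed to 4611 CPM (Lyz2 4306 CPM, Fcgr1 at 0) against 1083 CPM of T cell markers. Most of this came from 7 of the 72 barcodes, which held at least 10 Lyz2 UMIs each, 36.0% of the UMIs of the class and 1408 of its 1412 Lyz2 UMIs. Without them the macrophage markers summed to 28.6 CPM and the T cell markers to 1443 CPM, so the T cell diet ratios of members are given with and without those barcodes, a split chosen after seeing the data. Shares of T cells and the counts of list genes in T cells include them.

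Most diet ratios of these genes had intervals that held 1. Of 35 ratios of members with at least 50 UMIs in 1 of the 7 classes, 9 had an interval without 1, those of Cdkn1a in 4 classes, of Cdkn1c in 3, and of Ccnd1 and Ccnd2 in endothelial cells. A member was counted as past the fold in a class when its CPM differed at least 2-fold between the diets and it had at least 50 UMIs there over both libraries. None of 7 members was past it in the Pi16/Dpp4/Sema3c fibroblasts (2.76% of all genes tested the same way), none of 7 in the other fibroblasts (3.54%) and none of 7 in endothelial cells (2.24%). The same held for none of 6 in Cd9-negative macrophages (3.77%), none of 4 in Cd9-positive macrophages (26% of genes, with 4 LFD cells) and none of 7 in the barcodes of both vessel rules (1.62%). In T cells 1 of 4 was past it, Cdkn1a (17.2%), and in mural cells 0 members reached 50 UMIs (15.2%). With so few members in each class these counts lie near the shares of all genes, so they are no result about the members. The median log2 ratio of the members that reached 50 UMIs was -0.06 in the Pi16/Dpp4/Sema3c fibroblasts, -0.15 in the other fibroblasts, 0.07 in endothelial cells and -0.07 in Cd9-negative macrophages, where the median of all genes tested lay at 0.01, -0.01, 0.01 and -0.01. It was -0.08 in Cd9-positive macrophages, -0.39 in T cells and -0.19 in the barcodes of both vessel rules, against -0.03, 0.01 and 0.02. Cdkn2a and Cdkn2b reached 50 UMIs in no class, and Cdkn2d did so in the other fibroblasts and the Cd9-negative macrophages.

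**Figure D1:**
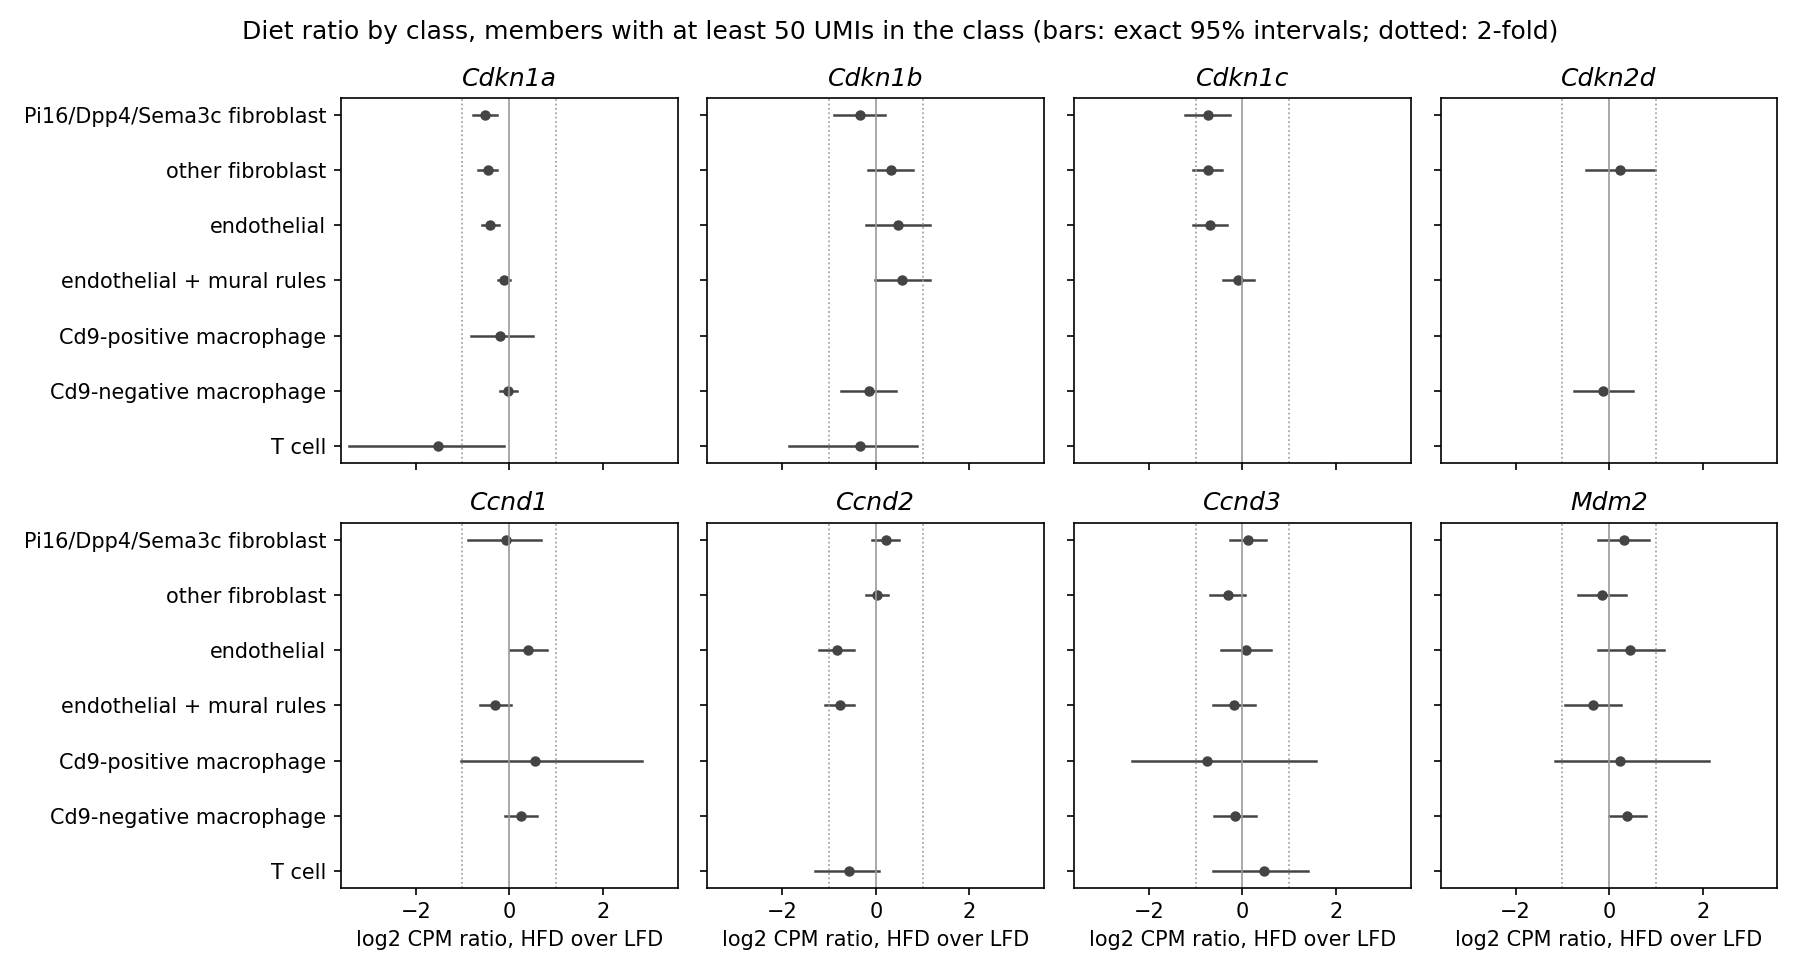
The log2 ratio of CPM between HFD and LFD (x axis) is drawn for each class (y axis) and each member with at least 50 UMIs in the class, with exact 95% intervals and dotted lines at 2-fold. Points for Cdkn1a and Cdkn1c lie left of 0 in both fibroblast classes and in endothelial cells, and the widest bars belong to Cd9-positive macrophages, with 4 LFD cells, and to T cells, with 21 HFD cells.

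Cdkn1a encodes p21, the inhibitor that p53 and stress signals induce, and it was most abundant in endothelial cells. Its level there was 1104 CPM in LFD (1018 to 1195) and 831 CPM in HFD (754 to 913). In LFD the other classes followed at 451 CPM in the 4 Cd9-positive macrophages (279 to 690), 359 CPM in Cd9-negative macrophages (328 to 391), 332 CPM in the other fibroblasts (303 to 362), 299 CPM in the Pi16/Dpp4/Sema3c fibroblasts (273 to 326), 287 CPM in mural cells (93.2 to 670, 5 cells) and 244 CPM in T cells (193 to 304). Endothelial cells stood apart from the next class, and each later neighbour overlapped with the one before it. In HFD the order after endothelial cells was mural cells at 429 CPM (117 to 1097, 6 cells), Cd9-positive macrophages at 394 CPM (363 to 426), Cd9-negative macrophages at 354 CPM (322 to 387), other fibroblasts at 241 CPM (217 to 266), Pi16/Dpp4/Sema3c fibroblasts at 210.2 CPM (180 to 244) and T cells at 85.2 CPM (23.2 to 218). There Cd9-negative macrophages and the other fibroblasts were the only neighbours whose intervals did not overlap. The wide interval of the 6 mural cells reached that of the endothelial class, which stood apart from both macrophage classes. Barcodes of both vessel rules carried Cdkn1a at 1143 CPM in LFD (1068 to 1222), overlapping with endothelial cells, and at 1058 CPM in HFD (993 to 1126), above them and apart.

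**Figure D2:**
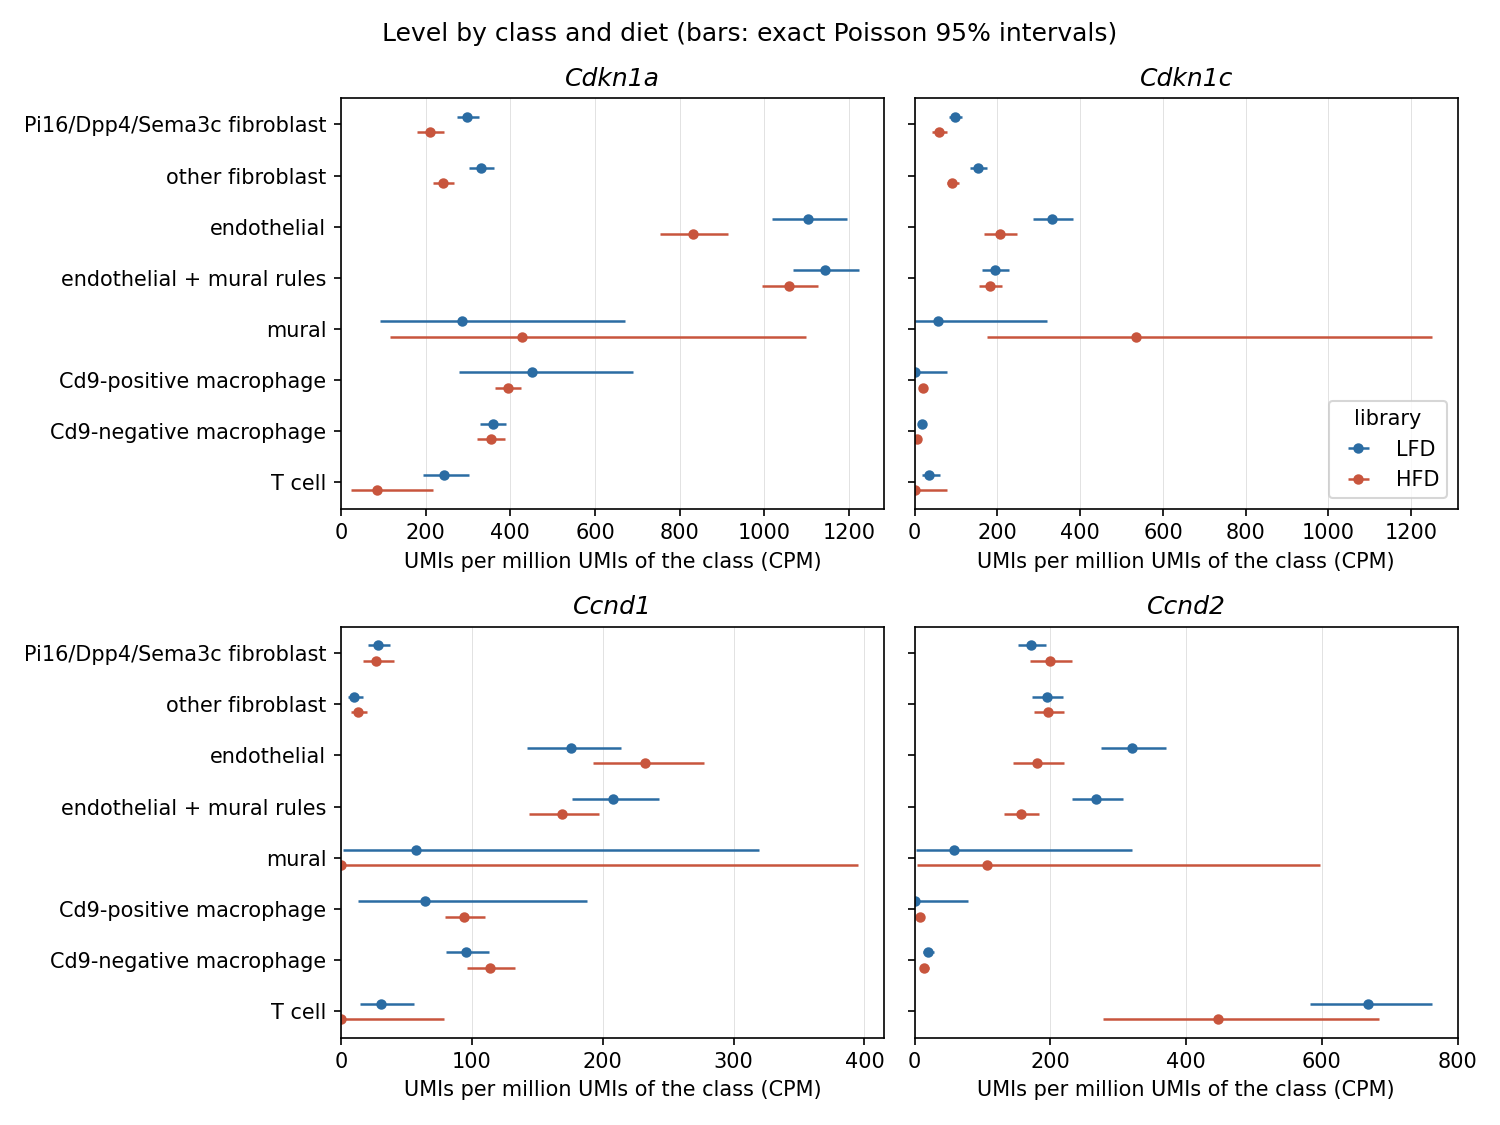
Levels of Cdkn1a, Cdkn1c, Ccnd1 and Ccnd2 in CPM (x axis) are drawn for each class (y axis) and diet, and bars are exact Poisson 95% intervals. Cdkn1a reaches 1104 CPM in LFD and 831 CPM in HFD endothelial cells, and Ccnd2 reaches 668 and 447 CPM in T cells.

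Cell by cell, Cdkn1a was spread widely over the endothelial class. In LFD 77.6% of the cells had it (68.0 to 85.4), in HFD 75.7% (66.8 to 83.2), at median depths of 4317.5 and 3156 UMIs. As a gauge of free RNA, the fibroblast gene Dcn was seen in 10.2% and 9.57% of the same cells. With each cell thinned to 1000 UMIs, which left out 7 and 19 shallower endothelial cells, Cdkn1a was seen in 52.7% and 50% of cells, against 20 to 27.6% of fibroblasts and Cd9-negative macrophages and 31.9% of HFD Cd9-positive macrophages. The barcodes of both vessel rules were at 52.9% and 60.4%, so the vessel groups had more cells with Cdkn1a than those classes at equal depth as well. The smallest classes had it in 2 of 4 LFD Cd9-positive macrophages, 1 of 4 LFD mural cells and 2 of 3 HFD mural cells. The 10 LFD and 12 HFD endothelial cells with the most Cdkn1a held 33.3% and 37.1% of its UMIs in the class, and a single HFD Cd9-positive macrophage held 52.

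Cdkn1a was lower in HFD in fibroblasts and endothelial cells and nearly level in Cd9-negative macrophages. From the levels above, the ratio was 0.703 (0.588 to 0.838) in the Pi16/Dpp4/Sema3c fibroblasts with 499 and 173 UMIs, 0.726 (0.634 to 0.831) in the other fibroblasts with 494 and 385 UMIs, and 0.753 (0.664 to 0.853) in endothelial cells with 610 and 429 UMIs. In Cd9-negative macrophages it was 0.986 (0.868 to 1.12), with a log2 value of -0.02 that became 0.53 under the filter of the study, and in the barcodes of both vessel rules 0.925 (0.844 to 1.01). None of these differences came near 2-fold, and the endothelial log2 ratio of -0.41 shrank to -0.10 when cells were thinned to 1000 UMIs and to -0.21 with the barcodes of both vessel rules added. Immediate early genes, a mark of tissue dissociation, moved the same way: the summed level of 13 such genes had a ratio of 0.879, 0.812 and 0.851 in these 3 classes, but also 0.721 in Cd9-negative macrophages, where Cdkn1a was level. In the endothelial class the sum of 3 of 3 adipocyte markers went from 261 to 87.1 CPM (Cidec 119 to 44.5 CPM) and that of 2 of 2 erythroid markers from 4749 to 6289 CPM (Hbb-bs 3562 to 5050 CPM). The part of these in the ratios was not tested. Over whole libraries Cdkn1a stood at 481 CPM in LFD (465 to 497) and 447 CPM in HFD (433 to 461).

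In T cells Cdkn1a was lower in HFD past 2-fold, but on few molecules. It had 80 UMIs in LFD (244 CPM) and 4 in HFD (85.2 CPM), a ratio of 0.349 (0.0929 to 0.930), and 3 of the 4 HFD UMIs were in 1 cell. The 7 Lyz2-rich LFD barcodes held 38 of the 80 UMIs. Without them the LFD level was 200 CPM (144 to 270.3), the ratio was 0.426 (0.111 to 1.17) and the UMIs fell below 50, so that 0 of 2 remaining members counted as past 2-fold. The log2 ratio of -1.52 turned to 0.25 when barcodes of several rules were counted in every class and to 0.51 under the filter of the study on genes and mitochondrial UMIs. Of the T cells 38.9% had Cdkn1a in LFD (27.6 to 51.1) and 9.52% in HFD (1.17 to 30.4), at median depths of 2764.5 and 1781 UMIs and beside Dcn in 12.5% and 9.52%. The HFD shares of both genes were equal, but Dcn was far more abundant, at 17097 CPM over all HFD fibroblasts. Cdkn1a stood at 447 CPM over the whole HFD library. Equal shares therefore cannot tell whether these Cdkn1a UMIs were free RNA, which was not tested. NK cell markers (3 of 3 in LFD, 2 of 3 in HFD, with Gzma at 357 CPM in LFD and at 0 in HFD) summed to 387 and 85.2 CPM in the class, and 13 immediate early genes to 7910 and 6092 CPM. B cell markers (3 of 3 in LFD, led by Cd79a at 54.9 CPM) summed to 143 CPM in LFD and dendritic markers (3 of 4, led by Cd209a at 113 CPM) to 119 CPM, and all of both were at 0 in HFD. Fibroblast markers (4 of 6 in LFD, led by Gsn at 85.4 CPM, and 0 in HFD) went from 101 to 0 CPM, and 3 of 6 endothelial markers from 21.3 to 128 CPM. Their part was not tested.

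Cdkn1c encodes p57, an imprinted inhibitor known from quiescent and differentiating cells, and it marked vessels and fibroblasts. Endothelial cells held 331 CPM in LFD (285 to 383) and 205 CPM in HFD (168 to 248). The other fibroblasts held 153 CPM (134 to 174) and 91.3 CPM (77.1 to 107), and the Pi16/Dpp4/Sema3c fibroblasts 97.0 CPM (82.6 to 113) and 58.3 CPM (43.0 to 77.3). In LFD these 3 classes stood apart from each other, and in HFD endothelial cells stood apart from the other fibroblasts while the fibroblast classes overlapped. Below them Cd9-negative macrophages held 16.7 CPM in LFD (24 UMIs) and 6.73 CPM in HFD (9 UMIs), a ratio of 0.402 (0.164 to 0.895) on fewer than 50 UMIs. HFD Cd9-positive macrophages held 20.5 CPM (32 UMIs, 8 of them in 1 cell), apart from the classes above and below, and their 4 LFD cells had 0. Mural cells had 1 and 5 UMIs, the 5 in a single HFD cell (536 CPM, 174 to 1250, overlapping with endothelial cells). T cells had 11 UMIs in LFD, 10 of them in 1 cell, and 0 in HFD. Cells with Cdkn1c made up 65.3% of the LFD endothelial class (55.0 to 74.6) and 40% of the HFD class (31.0 to 49.6), against 8.89% and 3.43% of Cd9-negative macrophages, which were deeper, with medians of 6296 and 6460.5 UMIs. After thinning the endothelial shares were 29.7% and 15.6%.

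The Cdkn1c level was lower in HFD in endothelial cells and in both fibroblast classes by a like ratio, short of 2-fold. The ratio was 0.620 (0.483 to 0.792) in endothelial cells with 183 and 106 UMIs, 0.601 (0.426 to 0.834) in the Pi16/Dpp4/Sema3c fibroblasts with 162 and 48, and 0.597 (0.481 to 0.738) in the other fibroblasts with 228 and 146. In the barcodes of both vessel rules it was close to level, at 193 CPM in LFD (163 to 227) and 182 CPM in HFD (156 to 211), a ratio of 0.940 (0.749 to 1.18). The intervals of the 2 vessel groups overlapped, and the difference between them was not tested. Thinned to 1000 UMIs, the other fibroblasts had 27 Cdkn1c UMIs in LFD and 28 in HFD, and their log2 ratio of -0.74 became 0.01. That is a single random draw. A separate draw over all fibroblasts had Cdkn1c in 45 of 372 LFD cells (12.1%) and 25 of 289 HFD cells (8.65%). Markers of other cell types moved in the same classes. In endothelial cells the adipocyte markers went from 261 to 87.1 CPM and the erythroid markers went from 4749 to 6289 CPM, as given for Cdkn1a. In the other fibroblasts macrophage markers (4 of 6 in LFD, 5 of 6 in HFD, with Adgre1 at 0 in both) went from 113 to 30.0 CPM (Lyz2 88.6 to 16.3 CPM) and 6 of 7 mural markers from 34.2 to 126 CPM (Ndufa4l2 14.1 to 61.9 CPM). The sum of 3 of 3 mesothelial markers there went from 58.4 to 14.4 CPM. In the Pi16/Dpp4/Sema3c fibroblasts 5 of 7 mural markers went from 92.2 to 152 CPM (Acta2 80.2 to 135 CPM). Their part was not tested. Summed over each library, Cdkn1c had 794 UMIs (108 CPM) in LFD and 553 UMIs (65.7 CPM) in HFD.

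Cdkn1b encodes p27, which holds resting cells, lymphocytes among them, out of the cycle. T cells had its highest level, 162 CPM in LFD (121 to 211) and 128 CPM in HFD (46.9 to 278, 6 UMIs). Endothelial cells held 61.5 CPM (42.6 to 86.0) and 85.2 CPM (61.9 to 114), the Pi16/Dpp4/Sema3c fibroblasts 62.9 and 49.8 CPM, the other fibroblasts 44.3 and 55.0 CPM, and Cd9-negative macrophages 39.1 and 35.1 CPM. In LFD T cells stood apart from all of these classes, while each of the others overlapped with the next in order of level, and in HFD each overlapped with the next, T cells included. Cd9-positive macrophages held 129 CPM (47.3 to 281) on 6 UMIs in LFD and 26.2 CPM (18.8 to 35.6) on 41 UMIs in HFD, a ratio of 0.203 (0.0858 to 0.586) that 4 LFD cells carry and that was not counted, with 47 UMIs. The wide LFD interval reached that of T cells and that of the Pi16/Dpp4/Sema3c fibroblasts, and the HFD interval that of Cd9-negative macrophages. Mural cells had 0 UMIs of 17423 and 9334, with exact Poisson upper limits of 212 and 395 CPM. The diet ratio lay between 0.792 and 1.48 in the fibroblast, vessel and Cd9-negative classes, and was highest in the barcodes of both vessel rules at 1.48 (0.990 to 2.25). In T cells it was 0.791 (0.278 to 1.84) and 0.839 (0.287 to 2.03) without the Lyz2-rich barcodes.

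Cdkn2a is a classical mark of senescence in mouse tissue, and its transcripts were scarce in both libraries, as were those of Cdkn2b. Cdkn2a had 15 UMIs in 11 of 1113 LFD barcodes and 28 UMIs in 13 of 1144 HFD barcodes. Its products p16INK4a and p19ARF share most of their sequence toward the 3′ end of the transcript, so counts of this kind do not separate them. In LFD 9 of the 15 UMIs were in 5 Cd9-negative macrophages, and in HFD 14 of the 28 were in 5 Cd9-positive macrophages, 8 of these in a single cell. Macrophages thus held most of the Cdkn2a assigned to a class in each library. Over all macrophages there were 9 UMIs in LFD and 15 in HFD, a ratio of 0.850 (0.349 to 2.20) whose interval is too wide for a statement on diet. In the Cd9-negative class alone there were 9 and 1, a ratio of 0.119 (0.00272 to 0.859). The 4 LFD cells of the Cd9-positive class had 0, with an exact Poisson upper limit of 79.3 CPM. The other fibroblasts had 1 and 6 UMIs, with 4 of the 6 in 1 cell, a ratio of 5.59 (0.678 to 257). In Pi16/Dpp4/Sema3c fibroblasts and endothelial cells there was 1 UMI each in LFD and 0 in HFD. The exact Poisson upper limits of these HFD levels were 4.48 and 7.14 CPM. T cells had 1 and 0, the barcodes of both vessel rules 0 and 2, and mural cells 0 in both libraries. Neighbouring classes overlapped in both libraries.

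Barcodes with Cdkn2a were compared with the rest for Cdkn1a, the other inhibitor used as a mark of senescence. In LFD 9 of 11 barcodes with Cdkn2a also held Cdkn1a, or 81.8% against 54.4% of those without. In HFD 8 of 13 did, or 61.5% against 63.3%. The barcodes with Cdkn2a were deeper, with median depths of 9300 and 11666 UMIs against 6129.5 and 6470 in the rest, and the part of depth was not tested. At least 3 UMIs of the cycling genes Mki67, Top2a, Birc5, Cdk1 and Ccnb1 were found in 2 of the 11 and 5 of the 13. These counts stand without those of the other barcodes, so they are no comparison.

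Cdkn2b encodes p15INK4b, the inhibitor known to respond to TGF-beta, and in LFD it was mainly seen in fibroblasts. It had 25 UMIs in 23 LFD barcodes and 24 UMIs in 22 HFD barcodes. The other fibroblasts held 15 and 7 of them, at 10.1 CPM (5.63 to 16.6) and 4.38 CPM (1.76 to 9.02), a ratio of 0.435 (0.15 to 1.13) on fewer than 50 UMIs. In LFD 14 of 204 of those cells had it, or 6.86% (3.80 to 11.2), against 2 of 225 Cd9-negative macrophages, or 0.889%, at medians of 7887.5 and 6296 UMIs, and after thinning 1.01% against 0. The Pi16/Dpp4/Sema3c fibroblasts had 2 and 3 UMIs, endothelial cells 0 and 2, Cd9-negative macrophages 3 and 1, Cd9-positive macrophages 0 and 5, the barcodes of both vessel rules 2 and 5, and T and mural cells 0. Neighbouring classes overlapped in both libraries. Cdkn2d encodes p19INK4d and was found more evenly, with 204 UMIs in LFD and 265 in HFD. Its LFD levels ran from 16.8 CPM in the Pi16/Dpp4/Sema3c fibroblasts to 39.6 CPM in T cells, and its HFD levels from 21.9 CPM to 128 CPM in the same classes, the last on 6 UMIs. In mural cells and in the 4 LFD Cd9-positive macrophages it had 0, and all neighbouring classes overlapped. Its diet ratio was 1.18 (0.712 to 1.97) in the other fibroblasts and 0.918 (0.593 to 1.42) in Cd9-negative macrophages. On fewer than 50 UMIs it was 3.22 (1.005 to 9.09) in T cells, or 2.98 (0.874 to 9.38) without the Lyz2-rich barcodes, 1.78 (0.904 to 3.64) in endothelial cells and 0.455 (0.235 to 0.851) in the barcodes of both vessel rules.

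**Figure D3:**
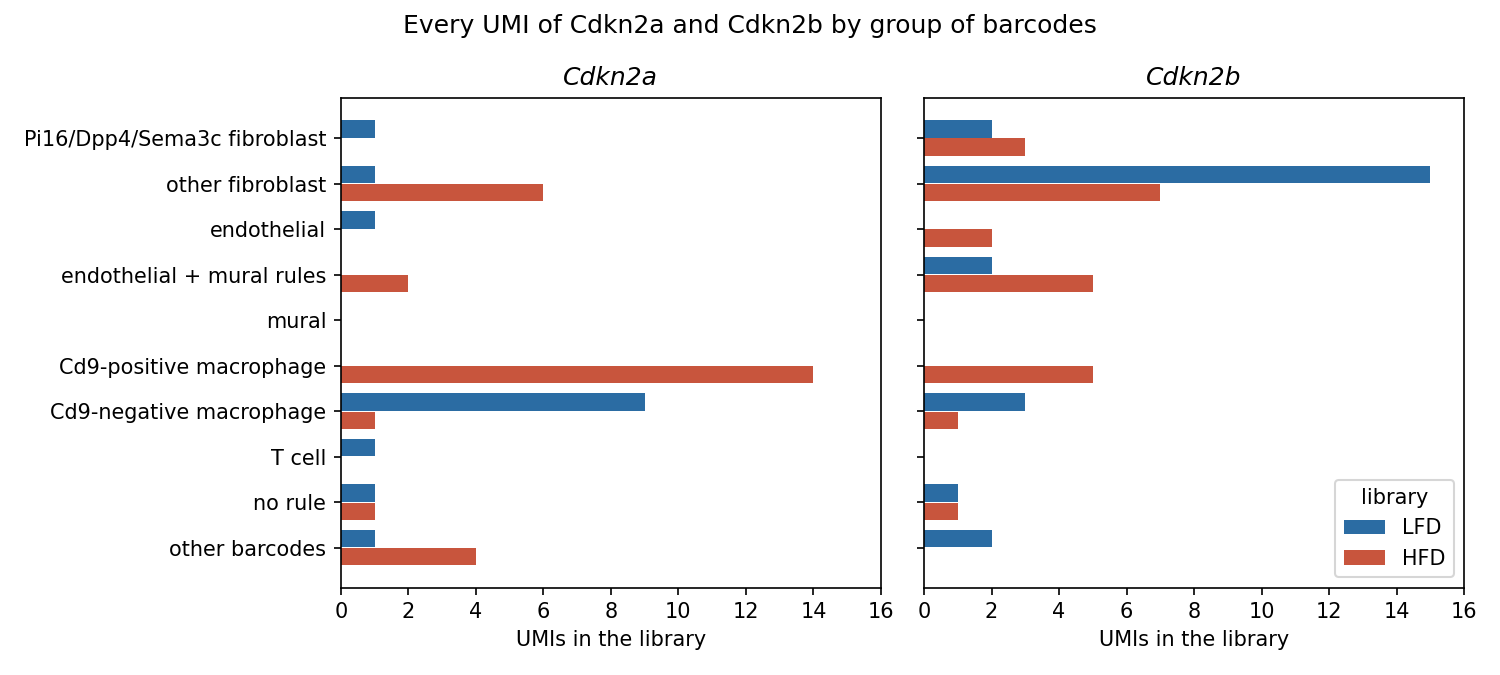
Bars count every UMI of Cdkn2a and Cdkn2b (x axis) in each group of barcodes (y axis) for LFD and HFD. Cdkn2a has 9 UMIs in LFD Cd9-negative and 14 in HFD Cd9-positive macrophages, and Cdkn2b has 15 and 7 in the other fibroblasts.

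Ccnd1 encodes cyclin D1, which links growth factor signals to CDK4 and CDK6, and among the 7 classes its highest level was in endothelial cells. They held 175 CPM in LFD (142 to 214) and 232 CPM in HFD (193 to 278), apart from the next class in both. Cd9-negative macrophages followed at 95.6 CPM (80.2 to 113) and 114 CPM (96.3 to 133), and Cd9-positive macrophages at 64.5 CPM on 3 UMIs and 94.0 CPM (79.4 to 110.5). Fibroblasts were low, at 28.1 CPM (20.7 to 37.4) and 26.7 CPM (16.7 to 40.5) in the Pi16/Dpp4/Sema3c class and 10.1 CPM (5.63 to 16.6) and 13.1 CPM (8.13 to 20.1) in the other. In LFD the fibroblast classes stood apart from each other, and in HFD the macrophage classes overlapped with each other and stood apart from the fibroblasts. Mural cells had 1 UMI in LFD and 0 in HFD. In T cells there were 10 UMIs in LFD, all in the 7 Lyz2-rich barcodes, and 0 in HFD. The exact Poisson upper limit of this HFD level was 78.6 CPM. Cells with Ccnd1 were a minority, 36.7% and 29.6% in the endothelial class against 3.43% and 6.28% in the deeper other fibroblasts, whose medians were 7887.5 and 7546 UMIs. After thinning these shares were 12.1% and 11.5% against 1.01% and 1.95%. Among the barcodes of both vessel rules, which were deeper, 60.8% in LFD and 52.2% in HFD had Ccnd1, or 13.7% and 13.2% after thinning.

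Between diets Ccnd1 differed little and not in a single direction. The endothelial ratio was 1.32 (1.005 to 1.75) with 97 and 120 UMIs, or 0.40 on the log2 scale. A single cell held 11 of the LFD UMIs, and another held 16 of the HFD UMIs. In the barcodes of both vessel rules the levels were 208 CPM in LFD (177 to 243) and 169 CPM in HFD (144 to 197), a ratio of 0.813 (0.648 to 1.02), and 35 of the 157 LFD UMIs were in 1 cell. With those barcodes added to the endothelial class, a setting chosen after seeing the data, the log2 ratio became -0.02, and as a mean over cells of their CPM it was 0.07. In Cd9-negative macrophages the ratio was 1.19 (0.937 to 1.51), with a log2 value of 0.25 that became 1.42 under the filter of the study, and in the Pi16/Dpp4/Sema3c fibroblasts 0.95 (0.545 to 1.61).

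Ccnd2 encodes cyclin D2, the D-type cyclin best known from lymphocytes, and its highest level was in T cells. They held 668 CPM in LFD (582 to 762) and 447 CPM in HFD (276.9 to 684, 21 UMIs), apart from the next class in both. Without the Lyz2-rich barcodes the LFD level was 728 CPM (618 to 853). In LFD endothelial cells came next at 320.2 CPM (275 to 371), apart from the other fibroblasts at 195 CPM (173 to 218) and the Pi16/Dpp4/Sema3c fibroblasts at 172 CPM (153 to 193), which overlapped. In HFD the 3 classes overlapped, at 180.1 CPM (145 to 221) in endothelial cells, 197 CPM (176 to 219.99) in the other fibroblasts and 199 CPM (169.9 to 232) in the Pi16/Dpp4/Sema3c fibroblasts. Macrophages were low, with 19.5 and 13.5 CPM in the Cd9-negative class and 8.31 CPM in the HFD Cd9-positive class, and mural cells had 1 UMI in each library. Of the T cells 83.3% had Ccnd2 in LFD (72.7 to 91.1) and 42.9% in HFD (21.8 to 66.0), against 5.78% and 5.88% of the deeper Cd9-negative macrophages. After thinning, which left out 3 and 1 T cells, the T cell shares were 46.4% and 25%.

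Ccnd2 was lower in HFD in both vessel groups, short of 2-fold, and level in fibroblasts. The endothelial ratio was 0.562 (0.433 to 0.727) with 177 and 93 UMIs, and 21 of the LFD UMIs were in 1 cell. In the barcodes of both vessel rules 268 CPM (232 to 307) in LFD stood against 156 CPM (132 to 184) in HFD, a ratio of 0.584 (0.469 to 0.726). The fibroblast ratios were 1.16 (0.951 to 1.41) in the Pi16/Dpp4/Sema3c class and 1.01 (0.860 to 1.19) in the other. Endothelial cells thus passed from above the fibroblasts in LFD to their level in HFD. The endothelial log2 ratio of -0.83 shrank to -0.19 under the filter of the study and to -0.37 as a mean over cells of their CPM. The adipocyte and erythroid markers given for Cdkn1a moved in the same class. In the barcodes of both vessel rules 2 of 2 erythroid markers went from 6949 to 4133 CPM (Hbb-bs 5371 to 3360 CPM) and 5 of 6 fibroblast markers from 872 to 1282 CPM, beside endothelial markers at 5542 and 5331 CPM. The part of these was not tested. In T cells the ratio was 0.670 (0.406 to 1.05), or 0.614 (0.369 to 0.973) without the Lyz2-rich barcodes. Over all macrophages the Ccnd2 ratio was 0.565 (0.328 to 0.977), with 28 and 31 UMIs and with 4 LFD and 116 HFD cells Cd9-positive. A single LFD Cd9-negative macrophage held 12 of those 28 UMIs, so this ratio leans on 1 cell.

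Ccnd3 encodes cyclin D3, which many cell types share, and its level was highest in T cells and lowest in macrophages among the larger classes. T cells held 171 CPM in LFD (129 to 222) and 234 CPM in HFD (117 to 419, 11 UMIs), endothelial cells 112 CPM (86.0 to 144) and 118 CPM (90.3 to 152), the Pi16/Dpp4/Sema3c fibroblasts 101 CPM (86.5 to 118) and 111 CPM (89.0 to 136), and the other fibroblasts 87.9 CPM (73.5 to 104) and 70.7 CPM (58.2 to 85.0). Cd9-negative macrophages held 67.7 and 60.5 CPM, and Cd9-positive macrophages 64.5 CPM on 3 UMIs in LFD and 38.4 CPM in HFD. In LFD each class overlapped with the next. In HFD the 2 fibroblast classes stood apart from each other and the other neighbours overlapped. Mural cells had 1 UMI in each library, and their wide intervals reached those of their neighbours. The diet ratio lay between 0.804 and 1.09 in the fibroblast, vessel and Cd9-negative classes, with 0.804 (0.619 to 1.04) in the other fibroblasts. In T cells it was 1.37 (0.648 to 2.65), or 1.17 (0.544 to 2.32) without the Lyz2-rich barcodes. Over all macrophages it was 0.719 (0.553 to 0.939), with 100 and 141 UMIs and with 4 LFD and 116 HFD cells Cd9-positive.

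Mdm2, which limits p53 and is itself induced by it, was higher in HFD over both macrophage classes summed, but its interval held 1 in the Cd9-negative class alone. Cd9-negative macrophages held 68.4 CPM in LFD (55.5 to 83.3) and 89.7 CPM in HFD (74.4 to 107), a ratio of 1.31 (0.996 to 1.73) whose log2 value of 0.39 became -0.58 after thinning. Thinning is a random draw, and the draw in this class had Mdm2 in 13 of 220 LFD and 5 of 203 HFD cells. A separate draw over all macrophages had it in 16 of 224 LFD and 27 of 319 HFD cells. HFD Cd9-positive macrophages held 101 CPM (85.9 to 118), and over all macrophages the ratio was 1.39 (1.10 to 1.76) with 102 and 278 UMIs, where 4 LFD and 116 HFD cells were Cd9-positive. In the Cd9-negative class 2 of 2 erythroid markers went from 33.5 to 146 CPM (Hbb-bs 19.5 to 107 CPM), and immediate early genes had a summed ratio of 0.721. Their part was not tested. Endothelial cells held 57.9 CPM (39.6 to 81.7) and 79.4 CPM (57.0 to 108), the Pi16/Dpp4/Sema3c fibroblasts 47.9 and 59.5 CPM and the other fibroblasts 45.0 and 40.6 CPM. Neighbouring classes overlapped throughout. In the barcodes of both vessel rules Mdm2 went from 66.2 to 52.1 CPM, a ratio of 0.786 (0.519 to 1.19). T cells had 20 and 2 UMIs and mural cells 0 in both libraries.

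Cd9-positive macrophages, with which the study's question is concerned, were compared with Cd9-negative ones within each library. A member was counted when it was past 2-fold in the same direction in both libraries with at least 50 UMIs in each, and none of 5 members was, against 4.05% of genes. The LFD class had 4 cells, with a ratio of 1.26 (0.772 to 1.94) for Cdkn1a and of 3.30 (1.16 to 7.64) for Cdkn1b on 6 UMIs, so the HFD values carry the comparison. In HFD Cdkn1a stood at 394 CPM in Cd9-positive and 354 CPM in Cd9-negative cells, a ratio of 1.11 (0.987 to 1.26). Cdkn1c had 32 UMIs against 9, a ratio of 3.04 (1.42 to 7.25), and Cdkn2a 14 against 1, a ratio of 12 (1.82 to 506). Both had fewer than 50 UMIs, and for each gene 1 Cd9-positive cell held 8. The Cdkn1c log2 ratio of 1.61 was 0.62, below 2-fold, as a mean over cells of their CPM. Ccnd3 was lower in the Cd9-positive cells, 38.4 against 60.5 CPM, a ratio of 0.634 (0.446 to 0.896), which turned to a log2 value of 0.32 on 5 and 7 UMIs after thinning. For Cdkn1b the ratio was 0.746 (0.479 to 1.16), for Cdkn2d 0.957 (0.618 to 1.49), for Ccnd1 0.827 (0.655 to 1.04), for Ccnd2 0.618 (0.278 to 1.33) and for Mdm2 1.13 (0.883 to 1.44). Cdkn2b had 5 UMIs against 1. In the same comparison the summed proliferation genes had a ratio of 2.12, the CDK and RB-E2F list 1.18, p53 targets 0.943, FOXO and KLF regulators 0.713, senescence-associated genes 1.06 and immediate early genes 0.615, and the Cd9-positive cells were deeper, with a median of 8879.5 against 6460.5 UMIs. Markers of other cell types differed as well. In Cd9-positive against Cd9-negative cells 1 of 4 dendritic markers, Cd209a, stood at 3.84 against 152 CPM, 2 of 2 erythroid markers at 42.8 against 146 CPM (Hbb-bs 35.8 against 107 CPM) and 5 of 6 fibroblast markers at 352 against 171 CPM (Gsn 338 against 144 CPM). T cell markers, 2 of 4 in each with Lck and Cd8b1 at 0, stood at 221 against 19.4 CPM, and Il7r made up 212 CPM of the first. The part of all these was not tested.

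Macrophages with signs of cycling held more of several of these genes. In HFD 28 macrophages had at least 3 UMIs of Mki67, Top2a, Birc5, Cdk1 and Ccnb1 and 245 had 0, and 20 of the 28 were Cd9-positive. Cdkn2d was higher in the cycling cells, 60.7 against 22.7 CPM, a ratio of 2.67 (1.66 to 4.28). Cdkn1a stood at 466 against 321 CPM (ratio 1.45, 1.25 to 1.68) and Ccnd1 at 150.2 against 98.2 CPM (ratio 1.53, 1.17 to 1.98). Cdkn1b was lower in them, 20.2 against 31.1 CPM (ratio 0.652, 0.318 to 1.23), as were Cdkn1c on 6 and 22 UMIs (0.830, 0.275 to 2.11), Cdkn2a on 2 and 13 (0.468, 0.0513 to 2.07) and Ccnd2 on 5 and 21 (0.724, 0.213 to 1.97). The intervals of all these lower ratios held 1. The cycling cells were also deeper, at a median of 11125.5 against 6488 UMIs. Mdm2 was level, at 91.1 against 88.2 CPM, and Ccnd3 lower, at 37.1 against 53.8 CPM (ratio 0.690, 0.413 to 1.10). In LFD 4 cycling cells stood against 214 others: Cdkn2d had 119 against 29.4 CPM (ratio 4.05, 1.64 to 8.80), Cdkn1a 669 against 347 CPM, Cdkn2a 4 against 5 UMIs (ratio 15.8, 3.14 to 73.4), and Ccnd1 0 UMIs against 130, at least 2.19-fold lower against a floor of 3 UMIs, with an upper 95% limit of the ratio of 0.569. Cdkn1b, Cdkn1c, Cdkn2a, Ccnd2 and Ccnd3, all lower in the HFD cycling cells, were higher in these 4 LFD cells, at ratios of 1.90, 1.88, 15.8, 4.56 and 1.12, so that they and Ccnd1 lay on opposite sides in the libraries. So did Cdkn2b, with 3 against 1 UMIs in HFD (ratio 9.13, 0.733 to 479) and 0 against 2 in LFD, and Mdm2, level in HFD and at 44.6 against 67.8 CPM in LFD (ratio 0.658, 0.133 to 1.99). The part of depth was not tested.

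Pi16/Dpp4/Sema3c fibroblasts, a class resembling the progenitors described in fat depots, were compared with the other fibroblasts in the same way. None of 7 members was past 2-fold in both libraries, against 5.31% of genes. Cdkn1c was lower in the Pi16/Dpp4/Sema3c class by a like ratio in each library, 0.634 (0.515 to 0.779) in LFD and 0.639 (0.451 to 0.890) in HFD. Ccnd1 was higher there, 2.80 (1.54 to 5.38) in LFD and 2.03 (1.07 to 3.89) in HFD, but had 43 UMIs in HFD and so was not counted. Under the filter of the study, which left 3 members with at least 50 UMIs in each library, the Cdkn1c log2 ratios of -0.66 and -0.65 turned to 0.05 and 0.35. With barcodes of several rules counted in every class the Ccnd1 log2 ratios of 1.48 and 1.03 shrank to 0.37 and 0.24, while without the barcodes marked by Scrublet the LFD value was 2.75. Cdkn1a was close to level, at 0.901 (0.794 to 1.02) and 0.873 (0.725 to 1.05), and so was Ccnd2, at 0.883 (0.747 to 1.04) and 1.01 (0.832 to 1.23). Ccnd3 had ratios of 1.15 (0.911 to 1.46) and 1.56 (1.17 to 2.08), Mdm2 of 1.07 (0.760 to 1.5) and 1.46 (0.990 to 2.15), and Cdkn1b of 1.42 (1.03 to 1.96) and 0.905 (0.609 to 1.33). The HFD Ccnd3 log2 ratio of 0.65 turned to -1.04 under the filter of the study, and the LFD Cdkn1b one of 0.51 to -0.94. Cdkn2b had 2 against 15 UMIs in LFD, a ratio of 0.119 (0.0132 to 0.512), and 3 against 7 in HFD. Cdkn2d was close to level, at 0.833 (0.479 to 1.44) and 0.920 (0.494 to 1.65), and Cdkn2a had 1 against 1 and 0 against 6 UMIs. Immediate early genes summed to a ratio of 0.693 and 0.750 between these classes, and mesothelial markers to 1007 against 58.4 CPM in LFD and 871 against 14.4 CPM in HFD, whose part was not tested.

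Genes that act with these members were read from lists by the same 2-fold rule. Of 20 genes of the CDK and RB-E2F list, 7 reached 50 UMIs in the Pi16/Dpp4/Sema3c fibroblasts and 1 was past 2-fold, Cdk6, a partner of the D-type cyclins, from 11.4 to 41.3 CPM (ratio 3.63, 2.01 to 6.74), beside 2.76% of all genes. None of 6 was in the other fibroblasts (3.54%), none of 1 in endothelial cells (2.24%) and none of 7 in Cd9-negative macrophages (3.77%). Among the targets of p53, the factor that induces Cdkn1a and Mdm2, none of 12, 6 and 9 was past it in the Pi16/Dpp4/Sema3c fibroblasts, endothelial cells and Cd9-negative macrophages, and 1 of 12 was in the other fibroblasts (3.54% of all genes), Trp53inp1, from 24.2 to 11.3 CPM (ratio 0.466, 0.249 to 0.842). The summed p53 targets had a ratio of 0.982 (0.921 to 1.05) and 0.935 (0.889 to 0.982) in the fibroblasts, 0.833 (0.778 to 0.892) in endothelial cells and 0.865 (0.809 to 0.924) in Cd9-negative macrophages, with Btg2 the most abundant in each. Btg2 made up most of the lower sums, going from 2330 to 1832 CPM of 3476 and 2895 CPM in endothelial cells and from 704 to 528 CPM of 1372 and 1187 CPM in Cd9-negative macrophages. In endothelial cells Cdkn1a was lower in HFD together with this sum, while Mdm2 had a ratio of 1.37 (0.843 to 2.25). In Cd9-negative macrophages Cdkn1a was level and the Mdm2 interval reached 1. FOXO and KLF regulators of the inhibitors and immediate early genes had 0 past 2-fold in these 4 classes. The FOXO and KLF sums had ratios of 0.946 and 1.12 in the fibroblasts, 0.902 in endothelial cells and 0.873 in Cd9-negative macrophages, and the CDK and RB-E2F sums 1.11, 1.06, 0.902 and 1.11 in the same order.

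Some proliferation and senescence-associated genes were past 2-fold in fibroblasts and macrophages, where 2.76% (Pi16/Dpp4/Sema3c fibroblasts), 3.54% (other fibroblasts) and 3.77% (Cd9-negative macrophages) of all genes were, and they were not tested against the members. In the other fibroblasts the proliferation list had a summed ratio of 1.80 (1.51 to 2.15), with 2 of 5 past 2-fold, Stmn1 (5.37 to 38.1 CPM) and Mki67 (0 to 50 UMIs, at least 15.5-fold higher against a floor of 3 UMIs, with a lower 95% limit of 12.2). The Pi16/Dpp4/Sema3c fibroblasts had a summed ratio of 3 (2.44 to 3.69) and 1 of 3 past 2-fold, Stmn1, from 15.6 to 75.3 CPM. Cdkn1a and Cdkn1c were lower in HFD in these same fibroblast classes. Of the senescence-associated list, Timp1 went from 25.2 to 194 CPM in the Pi16/Dpp4/Sema3c fibroblasts, where Ccl2 (366 to 756 CPM) was past 2-fold as well. In the other fibroblasts Timp1 went from 43.6 to 406 CPM and Mmp3 from 18.1 to 111 CPM, while Igfbp3 went down from 43.0 to 11.3 CPM, 3 of 10 in all. In Cd9-negative macrophages Gdf15 (27.2 to 162 CPM), Il1b (67.7 to 299.7 CPM) and Cxcl1 (121 to 359 CPM) were higher and Il6 (57.9 to 21.7 CPM) lower past 2-fold, 4 of 8 in all, and 2 of 7 proliferation genes were higher, Top2a and Mcm5. The summed senescence-associated list was level in them, at 1.05 (0.996 to 1.10), and its most abundant gene Ccl2 went from 1477 to 993 CPM. That sum was higher in HFD in the Pi16/Dpp4/Sema3c fibroblasts (ratio 1.42, 1.37 to 1.48), the other fibroblasts (1.31, 1.27 to 1.35) and endothelial cells (1.17, 1.09 to 1.25). Igfbp7 was its most abundant gene in each, going from 1401 to 1913, 2798 to 3701 and 2211 to 2784 CPM. The endothelial sum went from 3195 to 3727 CPM, so Igfbp7 carried its rise. The median log2 ratio of list genes with at least 50 UMIs was 0.36, 0.42 and -0.02 in the same order. Endothelial cells had 0 of 3 proliferation and 0 of 4 senescence-associated genes past it.

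In Cd9-positive macrophages, where 4 LFD cells set the base and 26% of all genes were past 2-fold, genes past 2-fold were 2 of 4 of the CDK and RB-E2F list (Cks1b and Cdk4, lower), 1 of 6 p53 targets (Btg2, lower), 2 of 4 FOXO and KLF regulators (Klf4 lower, Cebpa higher) and 4 of 11 immediate early genes (Egr1, Jun, Ier2 and Ier3, lower). So were 6 of 9 proliferation genes (5 lower, led by Top2a, Mki67, Hmgb2 and Stmn1) and 3 of 8 senescence-associated genes (Lmnb1 lower, Cxcl1 and Glb1 higher). Of the 4 LFD cells 1 was itself a cycling cell by the rule above. Proliferation genes summed to 3955 CPM in these 4 cells, against 441 CPM in LFD Cd9-negative macrophages. The part of that cell was not tested. T cells gave 0 of 0, 1 of 2 (Bax), 2 of 3 (Cebpb and Klf6), 5 of 10 (led by Zfp36, Atf3, Egr1 and Fosb), 1 of 2 (Stmn1) and 1 of 2 for the same lists, beside 17.2% of all genes and all lower in HFD, the last being Il1b, whose 162 LFD UMIs were all in the 7 Lyz2-rich barcodes. In the barcodes of both vessel rules 1 of 3 proliferation genes, Stmn1 (41.1 to 118 CPM), and 1 of 6 senescence-associated genes, Gdf15 (31.8 to 85.0 CPM), were higher, beside 1.62% of all genes, and 0 were past it in the other lists. Mural cells had too few UMIs, with 4 immediate early and 1 senescence-associated gene at 50 UMIs and 0 past 2-fold.

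Over the 14 profiles of 7 classes by 2 libraries, some members followed each other. These profiles share libraries, and some rest on few cells, so the Pearson correlations of log2(CPM + 10) are descriptions. Ccnd2 and Ccnd3 had a correlation of 0.82, and 0.86 over the 11 profiles with at least 20 cells, a subset chosen after seeing the data. Cdkn1a and Ccnd1 had 0.71 and 0.87, and Cdkn1a and Cdkn1c 0.53 and 0.70. Cdkn1b and Mdm2 had 0.77 and -0.43, Cdkn1b and Ccnd3 0.47 and 0.92, and Ccnd2 and Mdm2 -0.18 and -0.71, so these depended on the profiles of few cells. Among 6773 genes the patterns most like Cdkn1a were those of Tmcc3 (0.89), Wasf2 (0.87) and Bnip2 (0.87), and those most like Cdkn1c were Nfe2l1 (0.95), Scoc (0.94) and Cyp2d22 (0.92). For Ccnd1 they were Jup (0.92), Plekho1 (0.89) and Dusp1 (0.88), and for Ccnd2 Senp6 (0.91), Ablim1 (0.86) and Socs2 (0.86). Over the 11 larger profiles the nearest genes were different for each of the 4, Gemin7 (0.96), Acyp2 (0.98), Akt1 (0.97) and 4930523C07Rik (0.96) coming nearest in the same order, so these lists also rest on the small classes.

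All 10 members were placed on mm10 by Ensembl gene ID in GENCODE M21, and 0 of them overlapped another gene on the same strand. Cdkn2a (ENSMUSG00000044303, chr4:89274471-89294653, minus strand) and Cdkn2b (ENSMUSG00000073802, chr4:89306299-89311039, minus strand) lie next to each other, with 11645 bases and 0 annotated genes between them. In LFD most of their UMIs fell in different classes, 9 of 15 for Cdkn2a in Cd9-negative macrophages and 15 of 25 for Cdkn2b in the other fibroblasts, whereas in HFD the other fibroblasts held 7 of 24 for Cdkn2b and the rest was spread over classes. Cdkn1a (ENSMUSG00000023067) lies at chr17:29090976-29100727 on the plus strand. Cdkn1c (ENSMUSG00000037664) lies at chr7:143458339-143461050 and Ccnd1 (ENSMUSG00000070348) at chr7:144929931-144939925, both on the minus strand, and Ccnd2 (ENSMUSG00000000184) at chr6:127125162-127152193 on the minus strand.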

How the data were processed

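The count tables that the authors deposited hold raw UMIs, made with Cell Ranger on mm10 and not normalized. The headers of the count tables name release 3.0.2, a later release is named in the methods. Barcodes with at least 200 genes were put in a class when they met exactly 1 rule. UMIs were summed over each class and library and divided by all its UMIs. With 1 library per diet no test was possible, and intervals and floors (3 counts for a count of 0) cover counting error only. Named genes were all 10 members, up to 4 genes per list and class with the largest fold past 2-fold and at least 50 UMIs, and the 3 genes of most like pattern for Cdkn1a, Cdkn1c, Ccnd1 and Ccnd2 among genes with at least 200 UMIs. The members and lists were chosen with earlier results of these data known. Cebpd, Trac and Trbc2 were absent from the gene table. The lists were CDK and RB-E2F, p53 targets, FOXO and KLF regulators, immediate early, proliferation and senescence-associated genes. Alternatives covered barcodes of several rules, filters, depth, weighting, scaling, doublets by Scrublet, class thresholds and the minimum of UMIs. Intervals were tested on simulated data, but the outcome is not given here, so it lends them no support. Python 3.11.15 was used with numpy 2.4.6, scipy 1.17.1, pandas 2.3.3, scanpy 1.11.5 and matplotlib 3.10.9.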

Additional observations from a re-analysis of the deposited data

How the results depend on the processing

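Of 356 alternative values of the 35 diet log2 ratios, 325 lay within the 95% counting interval of the reported value, as did 121 of 134 for the Cd9 comparison and 126 of 147 for the fibroblast comparison. Cdkn1a kept its sign under all 10 alternatives in the Pi16/Dpp4/Sema3c fibroblasts (log2 -0.83 to -0.32), under all 10 in the other fibroblasts (-0.71 to -0.41) and under all 11 in endothelial cells (-0.42 to -0.10). Cdkn1c did so in the Pi16/Dpp4/Sema3c fibroblasts (-0.88 to -0.41) and endothelial cells (-0.85 to -0.40), and Ccnd2 in endothelial cells (-0.98 to -0.19). Among values with an interval off 0, those that turned were Cdkn1c between diets in the other fibroblasts (0.00961) and Ccnd3 in the HFD Cd9 comparison (0.32) with cells thinned to 1000 UMIs, where fewer UMIs are left, Ccnd1 between diets in endothelial cells with the barcodes of both vessel rules added (-0.0209, chosen after seeing the data), and Cdkn1a between diets in T cells with barcodes of several rules counted (0.25) and under the filter of the study (0.51). Under that filter the fibroblast comparison turned for Cdkn1b in LFD (-0.94), Cdkn1c in LFD (0.0464) and HFD (0.35) and Ccnd3 in HFD (-1.04). Fewer cells and UMIs are left there as well. Between diets, members with at least 50 UMIs went from 7 to 1 in the Pi16/Dpp4/Sema3c fibroblasts. In the other fibroblasts they went from 7 to 3. Values with an interval holding 0 turned as well. Among them, between diets in the Pi16/Dpp4/Sema3c fibroblasts, were Cdkn1b (-0.34 to 2.17) and Ccnd3 (0.13 to -1.79) under that filter. Ccnd1 (-0.07 to 1.04) and Ccnd2 (0.21 to -0.40) turned there after thinning, and Mdm2 (0.31) in both settings, to -0.03 and -0.13. The cause was not tested. Thinned values come from single random draws, and separate draws differed, as given above for Mdm2 and Cdkn1c. The count of members past 2-fold between diets became, with no minimum beyond 1 UMI, 1 in the Pi16/Dpp4/Sema3c fibroblasts, 2 in the other fibroblasts, 1 in mural cells, 1 in Cd9-positive macrophages, 3 in Cd9-negative macrophages and 2 in T cells, where members of few UMIs enter. With at least 20 UMIs it became 1 in the other fibroblasts, 1 in Cd9-positive and 1 in Cd9-negative macrophages. With barcodes of several rules counted it became 3 in Cd9-positive macrophages and 0 in T cells, under the filter of the study 1 in Cd9-negative macrophages and 0 in T cells, and in T cells it was also 0 after thinning and 0 without the Lyz2-rich barcodes, where Cdkn1a had log2 ratios of -2.46 and -1.23 on fewer than 50 UMIs. No paired analysis was possible because there is 1 library per diet, and for the same reason no replicate could be left out. Some alternatives gave no value: counts in mural cells under most settings and in Cd9-positive macrophages after thinning, and ratios with 0 UMIs on a side, mostly for the 4 LFD Cd9-positive macrophages and for Cdkn2a and Cdkn2b, whose few UMIs limit any statement on them.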
